A study of Mus musculus with 11 samples.

Results

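The comparison described here is the loss of Ifnar1 within acute myeloid leukaemias (AML) that carried abundant B-lineage transcripts. Bulk RNA sequencing covered 11 mouse AML samples, all of which carried Flt3-ITD, a form of the cytokine receptor FLT3 that signals without its ligand, and NHD13, the NUP98-HOXD13 fusion transgene. The libraries were chosen by their level of Ebf1, the gene of a transcription factor that commits progenitors to the B-cell lineage, and kept at 100 CPM (counts scaled to the same total in every library) or more. This kept 5 of 11 libraries. Of them, 3 of the 6 Ifnar1 +/- libraries, numbered 3, 4 and 5, kept 1 functional copy of Ifnar1 per the labels. The other 2, of the 5 Ifnar1 -/- libraries and numbered 3 and 5, were labelled as lacking both. The numbers are those of the sample titles. The labels give no wild-type group, no age and no cell sort, and they do not say whether each sample is a mouse of its own. A p-value therefore measures only how these samples vary, which may be technical in part.

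By column total, Ebf1 stood at 806, 692.9 and 691.5 CPM in Ifnar1 +/- libraries 3, 4 and 5 and at 687.1 and 588.2 CPM in Ifnar1 -/- libraries 3 and 5. The 6 libraries left out ran from 0.0349 to 8.948 CPM, so no library lay near the threshold. Ebf1 chose the libraries, and its level is given as a description. A threshold of 300 CPM, or Vpreb1 at 100 CPM or more, kept the same 5 libraries. Vpreb1, which encodes part of the surrogate light chain of the pre-B-cell receptor, was abundant in all 5 and at most 8.37 CPM in the others. The labelled AML thus carried transcripts of early B-lineage cells, and in bulk RNA more cells of a type and more RNA per cell cannot be told apart.

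**Figure D1:**
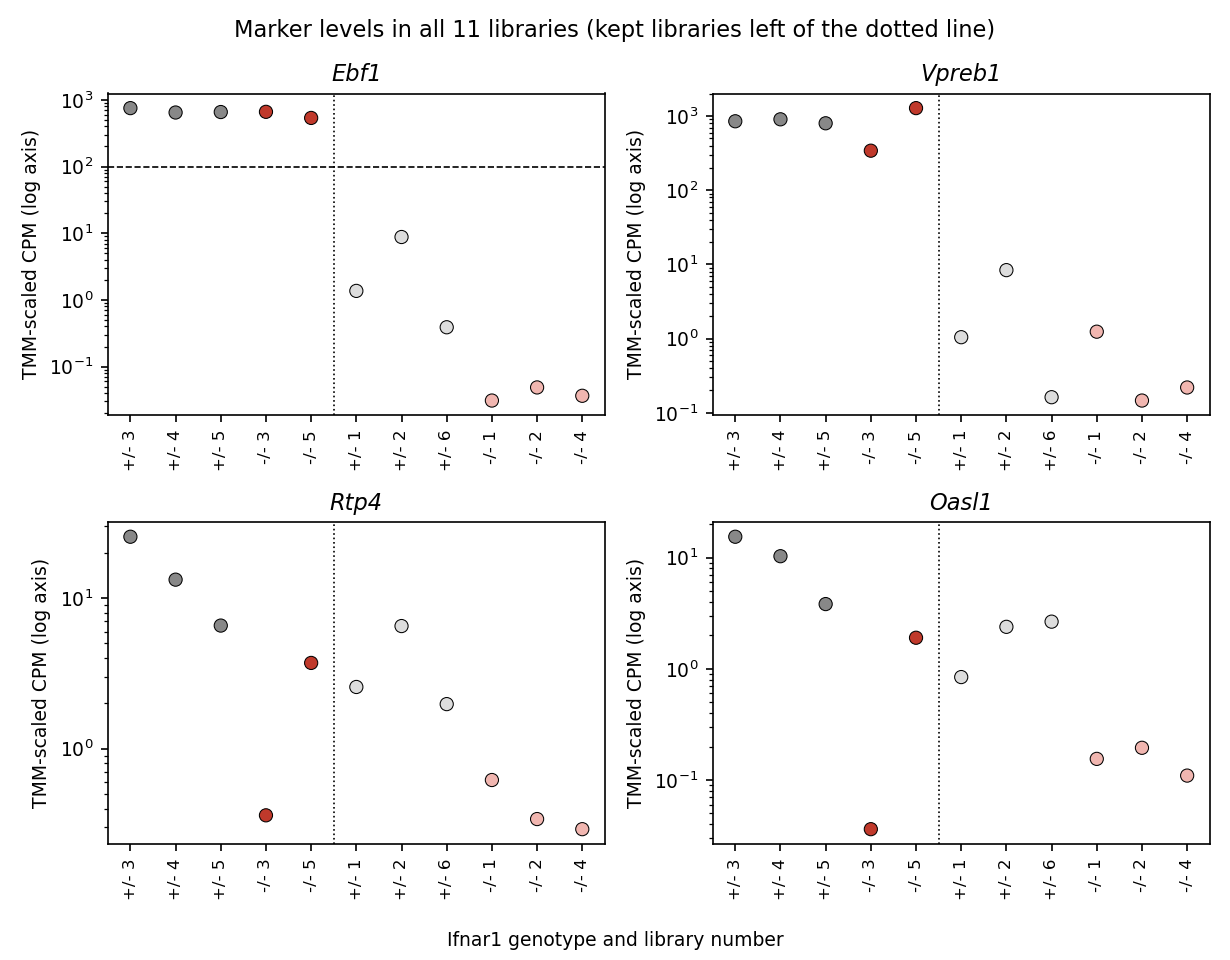
TMM-scaled CPM (log axis) of Ebf1, Vpreb1, Rtp4 and Oasl1 in each of the 11 libraries, 1 point per library, with kept libraries left of the dotted line and the 100 CPM minimum as a dashed line. Ebf1 and Vpreb1 separate the kept libraries from the rest, and among the kept libraries Rtp4 and Oasl1 are lowest in Ifnar1 -/- library 3.

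Type I interferons bind a receptor made of the IFNAR1 and IFNAR2 chains. The kinases JAK1 and TYK2 then phosphorylate STAT proteins, among them STAT2, which join IRF9 and bind a DNA element, the interferon-stimulated response element (ISRE), in the promoters of interferon-stimulated genes. These genes encode antiviral enzymes, GTPases and parts of antigen presentation, and many keep a low tonic level in blood-forming cells without infection. Without IFNAR1 the receptor does not signal, while interferon gamma and interferon lambda use other receptors.

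The promoters below are shown because letters that match the core of the ISRE lie within them. The core of the ISRE, written here as GAAA and GAAA with any 2 bases between them, was searched on both strands of RefSeq promoter windows (GRCm38.p6, 250 bases before to 50 after a transcription start), and each sequence gives the 250 bases before the start, 5′ to 3′ on the strand of the gene, with matches in capitals. In Oas1a and Isg15 the matches overlap, and in Ifit1 they read on the opposite strand.
Oas1a: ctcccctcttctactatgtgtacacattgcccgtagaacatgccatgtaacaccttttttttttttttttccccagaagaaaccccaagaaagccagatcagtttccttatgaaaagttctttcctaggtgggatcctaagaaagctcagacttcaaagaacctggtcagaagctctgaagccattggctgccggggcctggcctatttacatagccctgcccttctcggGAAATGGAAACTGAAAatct
Isg15: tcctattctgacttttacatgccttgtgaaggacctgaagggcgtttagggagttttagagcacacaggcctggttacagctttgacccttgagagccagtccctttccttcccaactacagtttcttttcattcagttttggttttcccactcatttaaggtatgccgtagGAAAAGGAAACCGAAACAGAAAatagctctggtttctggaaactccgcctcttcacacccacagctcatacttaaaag
Ifit1: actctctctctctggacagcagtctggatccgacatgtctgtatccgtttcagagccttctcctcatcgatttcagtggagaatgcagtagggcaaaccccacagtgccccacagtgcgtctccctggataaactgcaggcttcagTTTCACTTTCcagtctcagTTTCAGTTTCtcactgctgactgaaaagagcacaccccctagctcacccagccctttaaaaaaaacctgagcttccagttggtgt
B2m: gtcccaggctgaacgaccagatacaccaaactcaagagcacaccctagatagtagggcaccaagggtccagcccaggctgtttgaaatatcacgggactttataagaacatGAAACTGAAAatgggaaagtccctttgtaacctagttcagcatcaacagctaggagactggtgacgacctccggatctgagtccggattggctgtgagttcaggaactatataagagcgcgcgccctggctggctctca
These windows lie at chr5:120907526-120907775 for Oas1a, chr4:156200819-156201068 for Isg15, chr19:34640639-34640888 for Ifit1 and chr2:122147437-122147686 for B2m, on the strands minus, minus, plus and plus in that order. Of the members of 4 interferon-stimulated lists (OAS family, Ifit family and ISG15 pathway, other antiviral effectors, and interferon-inducible GTPases) 64 had a window, and 37 of these (57.8%) held the core. The core was in 388 of 10161 tested genes with a window (3.82%). The core of EBF1 binding, TCCC and GGGA with any 2 bases between them, was in 0 of the 64, in 2 of 33 B-lineage genes (6.06%) and in 1.22% of tested genes. A match is a description of the letters and does not show that a factor binds.

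Over all 14801 genes tested with edgeR's quasi-likelihood test, no gene passed an adjusted p of 0.05 between Ifnar1 -/- and Ifnar1 +/- (percent called 0), and limma voom called 0. At an unadjusted p under 0.05, 236 genes were lower (1.59%) and 247 higher (1.67%), where evenly spread p-values would give 740 in all. DESeq2 called 86 of 14791 genes (0.581%), of which 48 were lower (0.325%) and 38 higher (0.257%). The calls thus depend on the tool, and below a gene is said to have passed only with the tool named. The 5 libraries held 25583642 to 38728143 counts and had 13796 to 14730 genes with at least 10 counts. The spread between libraries of a genotype was a biological coefficient of variation of 0.467. By 1 minus Spearman's correlation over tested genes, the Ifnar1 -/- libraries were 0.0658 apart, the largest of the 10 distances, against 0.0270 to 0.0538 among Ifnar1 +/- libraries and 0.0400 to 0.0569 between genotypes. Each library is therefore given on its own, as TMM-scaled CPM (CPM corrected for composition), in the order Ifnar1 +/- libraries 3, 4 and 5 and then Ifnar1 -/- libraries 3 and 5.

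Transcripts of Ifnar1 itself were not lower in the libraries labelled Ifnar1 -/-. Its level was 91.4, 73.2 and 77.95 CPM in the Ifnar1 +/- libraries and 144 and 80.2 CPM in the Ifnar1 -/- libraries. Library 3 of Ifnar1 -/- was the highest of the 5, and library 5 lay within the Ifnar1 +/- range. Its log2 fold change of 0.47 (SE 0.28) had an adjusted p of 0.9999 in edgeR, and an exact permutation test of log2(CPM + 1), two-sided, gave p = 0.4, where 10 assignments allow no p below 0.2. In GRCm38 Ifnar1 (ENSMUSG00000022967) spans 91485238 to 91507441 of chromosome 16, plus strand, and reads counted over all of it cannot show a deleted exon. Genotype therefore means the labelled genotype.

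Of 20 genes of interferon receptors and the JAK-STAT pathway 8 had a lower fitted value, and none passed in edgeR or DESeq2. Ifnar2, the other chain of the receptor, had 47.04, 52.4 and 52.8 CPM and 65.3 and 50.9 CPM. Jak1, the kinase shared by the interferon receptors, had 179, 152 and 170.2 CPM and 183 and 183 CPM, above the Ifnar1 +/- range in both Ifnar1 -/- libraries by a small margin. Stat2 and Irf9, parts of the factor that binds the ISRE, were low in 1 library only. Stat2 had 47.1, 25.4 and 36.5 CPM and 14.3 and 32.2 CPM, and Irf9 had 37.7, 26.7 and 20.02 CPM and 5.61 and 26.1 CPM. Ifnar1 -/- library 3 was below the Ifnar1 +/- range of both genes and library 5 within it. Ifnar2, Jak1 and Stat2 were named after their values were seen. Stat4, which signals chiefly for interleukin 12, had 15.4, 30.98 and 13.98 CPM and 39.8 and 38.9 CPM, above the Ifnar1 +/- range in both Ifnar1 -/- libraries. That position held for 4 of the 20 genes (20%, beside 7.22% of all genes). Both Ifnar1 -/- libraries were below the range in 1 (5%, beside 9.34%).

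Transcripts of the interferons themselves were close to undetected. Of 21 ligand genes 18 had 0 counts in all 5 libraries, for which the limit of 3 counts is 0.0775 to 0.117 CPM per library and covers counting error only. The other 3 were Ifnz with 8 counts in all, Ifnk with 2 and Ifna13 with 1.

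Interferon-stimulated genes had lower values in Ifnar1 -/- library 3 than in any Ifnar1 +/- library for most members, and library 5 lay within the Ifnar1 +/- range for 40 of 80. Over the 4 lists, 80 of 105 members passed the filter on low counts, and 58 of these (72.5%) had a lower fitted value, against 50.7% of all genes tested. Their median log2 fold change was -0.42, beside -0.01 over all genes. edgeR called 0 members and DESeq2 called 3 of the 80, all lower: Ifi27, Ifi27l2a and Cmpk2. Over all genes DESeq2 called 0.325% lower. With the single Ifnar1 -/- library 3 the median was -0.82, with library 5 alone it was -0.14, and without Ifnar1 +/- library 3 it was -0.22. In these fits a lone library is assumed to vary like the Ifnar1 +/- group. The members had been known from earlier results of these data to differ between the Ifnar1 -/- libraries, so these values describe the libraries and are not independent support.

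**Figure D2:**
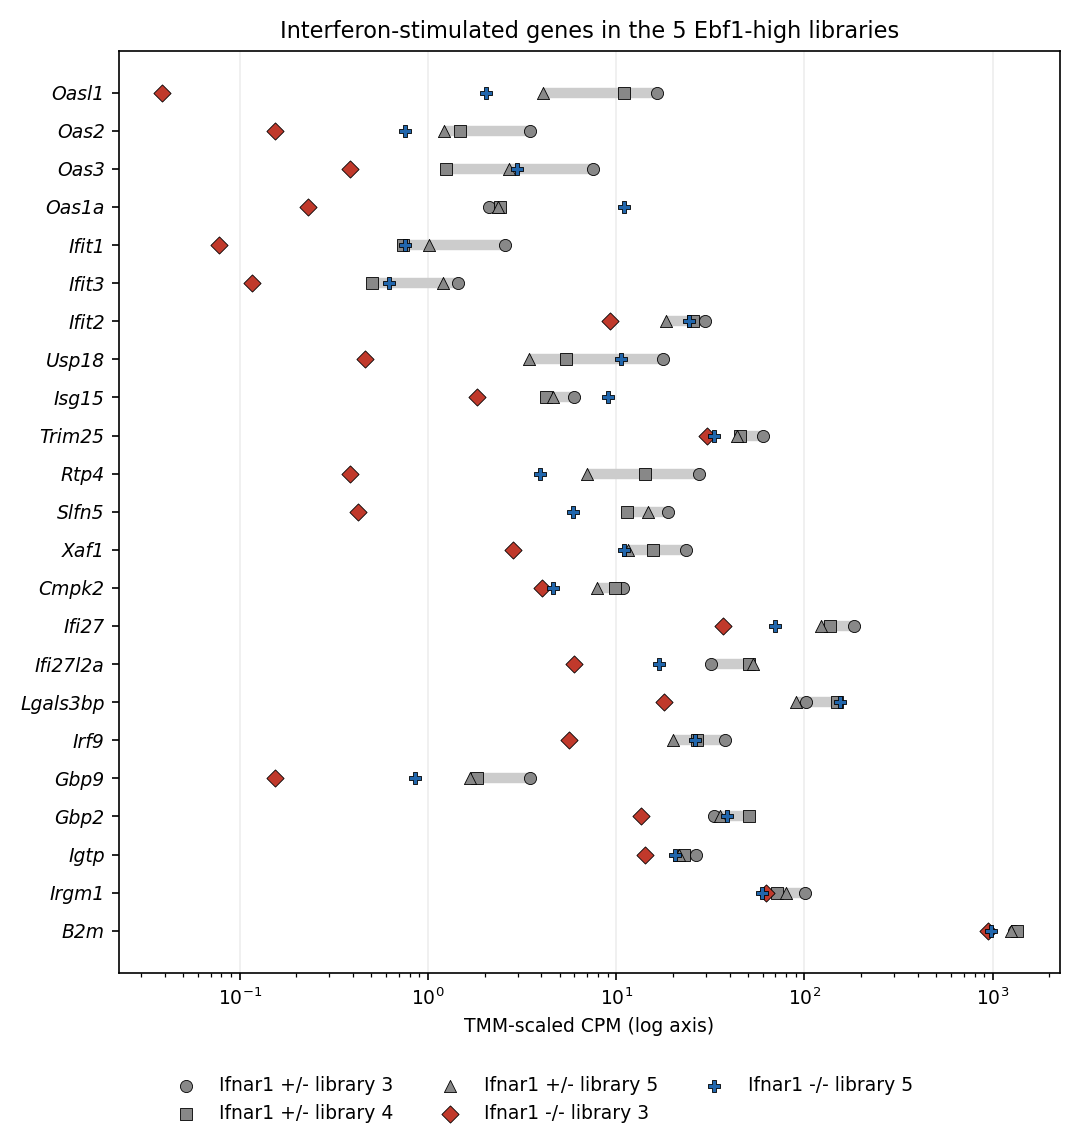
TMM-scaled CPM (log axis) of 23 chosen interferon-stimulated genes and signalling members, 1 symbol per library, with the range of the 3 Ifnar1 +/- libraries as a grey bar. The genes were picked with their values known, so that Ifnar1 -/- library 3 is left of the bar in every row, against 51 of all 80 tested, while library 5 is left of it, inside it or, for Oas1a, Isg15 and Lgals3bp, right of it.

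The OAS family encodes sensors that bind double-stranded RNA and make the oligoadenylates that switch on RNase L, together with OAS-like proteins. Of 12 members 7 passed the filter and 6 had lower fitted values (median -0.77, with -3.28 for Ifnar1 -/- library 3 alone and -0.32 for library 5 alone). Oasl1, which restrains translation of the interferon regulator IRF7, had 16.5, 11 and 4.06 CPM and 0.0387 and 2.02 CPM. Its value in Ifnar1 -/- library 3 was 1 count, and library 5 also lay below the Ifnar1 +/- range. The log2 fold change of Oasl1 was -3.34 (SE 1.43), which did not pass in either tool. Oas2 had 3.50, 1.48 and 1.22 CPM and 0.155 and 0.755 CPM, again below the range in both. Oas3 had 7.51, 1.24 and 2.71 CPM and 0.387 and 2.99 CPM, and Oasl2 had 5.72, 2.92 and 2.73 CPM and 1.28 and 3.16 CPM. In both of these library 3 was below the range and library 5 within it. Oas1a, whose promoter is printed above, split the Ifnar1 -/- libraries, at 2.10, 2.41 and 2.34 CPM against 0.232 and 11.05 CPM. Its level in library 5 was above all Ifnar1 +/- libraries and in library 3 below all of them. Oas1c and Oas1b, near copies of Oas1a among which reads may have been shared, had 15.5, 8.63 and 11.2 CPM and 10.2 and 8.58 CPM, and 1.36, 1.79 and 1.80 CPM and 1.01 and 1.37 CPM.

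The Ifit proteins bind viral RNA, and ISG15 is a ubiquitin-like tag that UBA7, UBE2L6 and HERC6 attach and USP18 removes. Of 12 members of this list 10 passed the filter, and 7 had lower fitted values (median -0.60, with -1.43 for Ifnar1 -/- library 3 alone and -0.05 for library 5 alone). Ifnar1 -/- library 3 lay below the Ifnar1 +/- range in 9 of 10 (90%, beside 28.6% of all genes) and library 5 in 3 (30%, beside 23.7%). Ifit1 had 2.57, 0.739 and 1.02 CPM and 0.0773 and 0.755 CPM, and Ifit3 had 1.44, 0.505 and 1.20 CPM and 0.116 and 0.618 CPM. Ifit2 had 29.5, 25.7 and 18.5 CPM and 9.28 and 24.3 CPM. In all of these genes library 3 was the lowest of the 5 and library 5 was inside the range. Isg15 had 5.99, 4.24 and 4.63 CPM and 1.82 and 9.03 CPM, and Usp18, which also blocks the receptor from inside the cell, had 17.7, 5.44 and 3.46 CPM and 0.464 and 10.6 CPM. Isg15 was thus above the Ifnar1 +/- range in Ifnar1 -/- library 5 and below it in library 3. The conjugating enzymes Uba7 and Ube2l6 had 71.3, 45.8 and 53.3 CPM and 52.7 and 88.7 CPM, and 91.9, 61.2 and 59.4 CPM and 54.2 and 88.9 CPM. Trim25, a ubiquitin ligase that activates the RNA sensor RIG-I, was the member of this list with the smallest p, at 60.3, 45.7 and 44.001 CPM and 30.2 and 32.9 CPM. Both Ifnar1 -/- libraries lay below the range of Trim25, with a log2 fold change of -0.66 (SE 0.20) that did not pass in either tool.

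Among the other antiviral effectors 51 of 63 members passed the filter, and 35 had lower fitted values (median -0.37, with -0.48 for Ifnar1 -/- library 3 alone and -0.08 for library 5 alone). The 3 members that DESeq2 called were low in both Ifnar1 -/- libraries. Ifi27, which encodes a small mitochondrial protein, had 183, 137 and 122 CPM and 37.04 and 69.4 CPM, a log2 fold change of -1.47 (SE 0.35, DESeq2 adjusted p = 0.0227). Its neighbour and relative Ifi27l2a had 32.02, 50.5 and 53.3 CPM and 5.99 and 16.9 CPM, a log2 fold change of -1.98 (SE 0.52, DESeq2 adjusted p = 0.0407). Cmpk2, a mitochondrial nucleotide kinase, had 10.9, 9.91 and 7.91 CPM and 4.06 and 4.63 CPM, a log2 fold change of -1.14 (SE 0.28, DESeq2 adjusted p = 0.0454). In none of these did a library of one genotype overlap the other genotype, and in edgeR none passed. Both Ifnar1 -/- libraries lay below the Ifnar1 +/- range in 11 of the 51 tested members (21.6%), beside 9.34% of all genes tested.

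Rtp4, a chaperone of G-protein-coupled receptors that is strongly interferon-inducible, had 27.4, 14.1 and 6.98 CPM and 0.387 and 3.95 CPM, a log2 fold change of -2.89 (SE 1.12). It did not pass in edgeR or DESeq2. Slfn5, of the Schlafen family, had 18.8, 11.3 and 14.8 CPM and 0.425 and 5.87 CPM, and Xaf1, an antagonist of the apoptosis inhibitor XIAP, had 23.5, 15.7 and 11.5 CPM and 2.82 and 10.9 CPM. These 3 genes were below the range in both Ifnar1 -/- libraries, and in each library 3 was lower than library 5, which for Xaf1 lay just under the range. Slfn5 and Xaf1 were named after their values were seen, so they add no independent support. Lgals3bp, a secreted glycoprotein, had 102, 149 and 89.8 CPM and 17.9 and 155 CPM, so that only library 3 was low. Some members showed the opposite order. Ly6e, a membrane protein that restricts coronaviruses, had 516, 1355 and 1108 CPM and 1703 and 2217 CPM, and Ifitm2, which blocks fusion of viruses in endosomes, had 354, 316 and 259 CPM and 396 and 431 CPM. Shisa5 had 113, 125 and 95.8 CPM and 137 and 182 CPM. In these genes both Ifnar1 -/- libraries lay above the Ifnar1 +/- range. That held for 4 of the 51 tested members of this list (7.84%), near the 7.22% of all genes tested. Apobec3, a cytidine deaminase against retroviruses, had 395, 499 and 428 CPM and 467 and 436 CPM, with all 5 libraries overlapping.

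The interferon-inducible GTPases coat and break the vacuoles of intracellular pathogens, and many respond to interferon gamma as well. Of 18 members 12 passed the filter, and 10 had lower fitted values (median -0.53, with -1.19 for Ifnar1 -/- library 3 alone and -0.19 for library 5 alone). Gbp9 had 3.46, 1.83 and 1.67 CPM and 0.155 and 0.858 CPM, and Irgm1 had 100.2, 71.6 and 79.5 CPM and 62.3 and 59.8 CPM. Both genes were below the Ifnar1 +/- range in both Ifnar1 -/- libraries. Gbp7 had 244, 501 and 405 CPM and 157 and 328 CPM, Gbp2 had 32.99, 50.9 and 35.6 CPM and 13.6 and 38.6 CPM, and Igtp had 26.5, 22.9 and 21.5 CPM and 14.3 and 20.4 CPM. Library 3 was the lowest of the 5 in each of them, and for Igtp library 5 also lay just under the range. Both Ifnar1 -/- libraries were below the range in 4 of the 12 tested GTPases (33.3%, beside 9.34% of all genes). Both were above it in 0, beside 7.22%. The Gbp genes are near copies of each other, and reads may have been split among them.

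Of 15 tested nucleic acid sensors 9 had lower fitted values (median -0.18). The median had no stable sign, being 0.19 without Ifnar1 +/- library 3, 0.06 without Ifnar1 -/- library 3 and 0.16 when genes needed a mean of 5 CPM. Dhx58, which encodes the RIG-I-like receptor LGP2, had 21.4, 10.5 and 10.05 CPM and 7.19 and 5.66 CPM, and Ddx58, which encodes RIG-I, had 21.9, 10.5 and 11.9 CPM and 8.47 and 11.5 CPM. Dhx58 was below the range in both Ifnar1 -/- libraries and Ddx58 in library 3. Of 8 tested interferon regulatory factors 3 had lower fitted values. Irf7, the regulator that amplifies interferon production, had 21.7, 5.64 and 5.62 CPM and 8.62 and 5.25 CPM, and Irf1 had 42.3, 43.1 and 46.3 CPM and 52.8 and 52.3 CPM. Neither passed, and no member of these lists passed in DESeq2.

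Counted against the 3 Ifnar1 +/- libraries, Ifnar1 -/- library 3 lay below the range in 51 of 80 tested interferon-stimulated genes (63.8%) and above it in 9 (11.2%). Over all genes tested these shares were 28.6% and 27.1%. Ifnar1 -/- library 5 lay below in 26 (32.5%) and above in 14 (17.5%), beside 23.7% and 21.9% of all genes. Both were below in 20 (25%) and above in 4 (5%), beside 9.34% and 7.22%. The shortfall was thus mainly in library 3, and library 5 was nearer to all genes in both directions. Among genes with a promoter window, 28 of the 37 with the ISRE core had a lower fitted value and a median of -0.46 (-1.08 for library 3 alone, -0.18 for library 5 alone). Of the 27 without it, 16 were lower, with a median of -0.27 (-0.40 and -0.06). Ifnar1 +/- library 3 was the highest of the 5 for many members, such as Usp18, Oas3 and Rtp4.

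**Figure D3:**
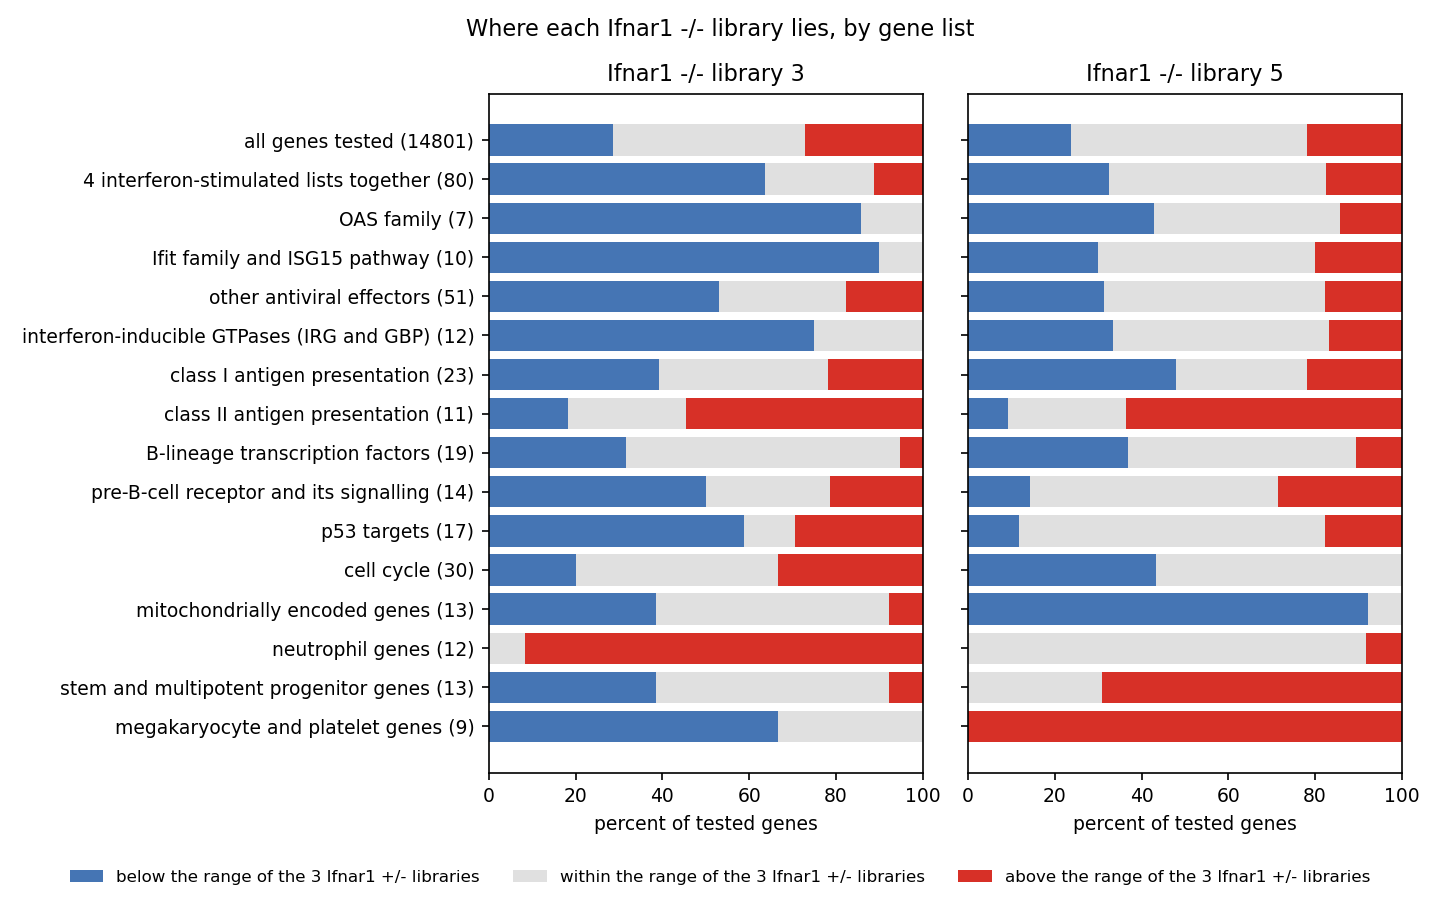
Share of tested genes (percent) in which each Ifnar1 -/- library lies below, within or above the range of the 3 Ifnar1 +/- libraries, for all genes tested and for named gene lists, with the number of genes in brackets. Library 3 is below the range in 63.8% of the interferon-stimulated genes and library 5 in 32.5%, beside 28.6% and 23.7% of all genes. Among neutrophil genes library 3 is mostly above the range, beside 27.1% of all genes. Among megakaryocyte genes library 5 is above it in all 9 tested, beside 21.9% of all genes.

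Class I antigen presentation shows peptides to CD8 T cells and is raised by both types of interferon. Of 23 tested members 16 had lower fitted values, with a median of -0.04. B2m, the light chain of class I molecules, had 1297, 1345 and 1252 CPM and 946 and 982 CPM. Both Ifnar1 -/- libraries lay below the narrow Ifnar1 +/- range, with a log2 fold change of -0.43 (SE 0.14, DESeq2 adjusted p = 0.0407), and B2m did not pass in edgeR. H2-D1, a classical heavy chain, had 3811, 3960.1 and 3858 CPM and 3624 and 3852 CPM, and the transporter gene Tap2 had 262, 233 and 212 CPM and 295 and 284 CPM. H2-D1 passed in neither tool, and Tap2 was above the range in both. H2-Q7, a non-classical heavy chain named here after its values were seen, had 157, 105 and 135 CPM and 2.40 and 88.1 CPM, so that library 3 had almost none. Class I genes are near copies of each other, and their counts may have been shared.

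All 11 tested class II genes, which present peptides to CD4 T cells, had a higher fitted value (median 0.70), and none passed in either tool. With library 3 as the only Ifnar1 -/- library the median was 0.19 and 36.4% of the members were lower, with library 5 alone it was 0.67, and limma voom gave 0.40 over all 5 libraries. Cd74, the invariant chain, had 124, 475 and 219 CPM and 104 and 872 CPM. H2-Eb1, a class II beta chain, had 1.28, 3.96 and 1.98 CPM and 2.74 and 8.48 CPM. In both genes library 5 alone was above the Ifnar1 +/- range. H2-DMa, which loads peptides, had 67.3, 21.7 and 41.3 CPM and 104 and 61.7 CPM, with library 3 the highest. Ciita, the regulator of class II genes, had 0.272, 0.117 and 0.130 CPM and 0.425 and 0.686 CPM, near the limit of detection but above the range in both.

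No gene passed in edgeR, and the 8 genes in each direction with the smallest unadjusted p are therefore named as such. All 16 passed in DESeq2, and in all 16 both Ifnar1 -/- libraries lay outside the range of the Ifnar1 +/- libraries, which their choice by p in these libraries makes likely. None of them is an interferon-stimulated gene of the lists. Among the lower genes, Prf1, the gene of perforin, with which killer lymphocytes pierce their targets, had 5.91, 8.01 and 7.19 CPM and 0.696 and 0.240 CPM (log2 fold change -3.91, SE 0.59). Thrb, the thyroid hormone receptor beta, had 93.6, 148 and 99.9 CPM and 40.9 and 36.8 CPM (log2 fold change -1.55, SE 0.26). Rgl1, an exchange factor for Ral GTPases, had 60.3, 48.4 and 44.5 CPM and 19.5 and 18.7 CPM (log2 fold change -1.42, SE 0.20). In Thrb and Rgl1 the Ifnar1 -/- libraries were close to each other, while Prf1 was lower in library 5 than in library 3. Fat4, an atypical cadherin, had 2.76, 2.99 and 5.10 CPM and 0.193 and 0.206 CPM, which is 5 and 6 counts in the Ifnar1 -/- libraries. Egfl6, a secreted protein with EGF-like repeats, had 31.5, 13.9 and 43.2 CPM and 1.55 and 3.19 CPM. Cysltr1, a receptor for cysteinyl leukotrienes, had 6.15, 4.12 and 1.72 CPM and 0.193 and 0.0686 CPM. The other two were Cav2, a caveolin, at 16.96, 15.98 and 14.8 CPM and 5.76 and 4.46 CPM, and Tmem86a, at 13.7, 19.5 and 19.1 CPM and 5.18 and 4.87 CPM.

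The gene with the smallest p of all was Zfp951, a zinc finger gene, at 0.0778, 0.272 and 0.0781 CPM and 12.3 and 8.24 CPM (log2 fold change 6.16, SE 0.68, DESeq2 adjusted p = 5.55e-14). It was close to undetected in the 3 Ifnar1 +/- libraries and plainly present in both Ifnar1 -/- libraries. Kcnk5, a potassium channel, had 3.58, 2.10 and 2.63 CPM and 14.2 and 17.5 CPM, and Ehd3, which acts in endosomal recycling, had 13.5, 9.13 and 10.2 CPM and 39.5 and 37.03 CPM. Enah, a regulator of actin filaments, had 3.54, 4.47 and 2.63 CPM and 13.2 and 12.3 CPM. These genes had about equal levels in the Ifnar1 -/- libraries. Vsig8, an immunoglobulin-domain gene, had 2.49, 4.74 and 2.45 CPM and 17.05 and 14.996 CPM. Nrip1, a corepressor of nuclear receptors, had 2.37, 1.44 and 1.74 CPM and 13.4 and 7.31 CPM. S100a4, a calcium-binding protein, had 0.817, 0.622 and 0.521 CPM and 9.67 and 3.81 CPM, and Fam189b had 7.16, 5.83 and 5.29 CPM and 47.2 and 19.4 CPM. In Nrip1, S100a4 and Fam189b library 3 was higher than library 5.

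**Figure D4:**
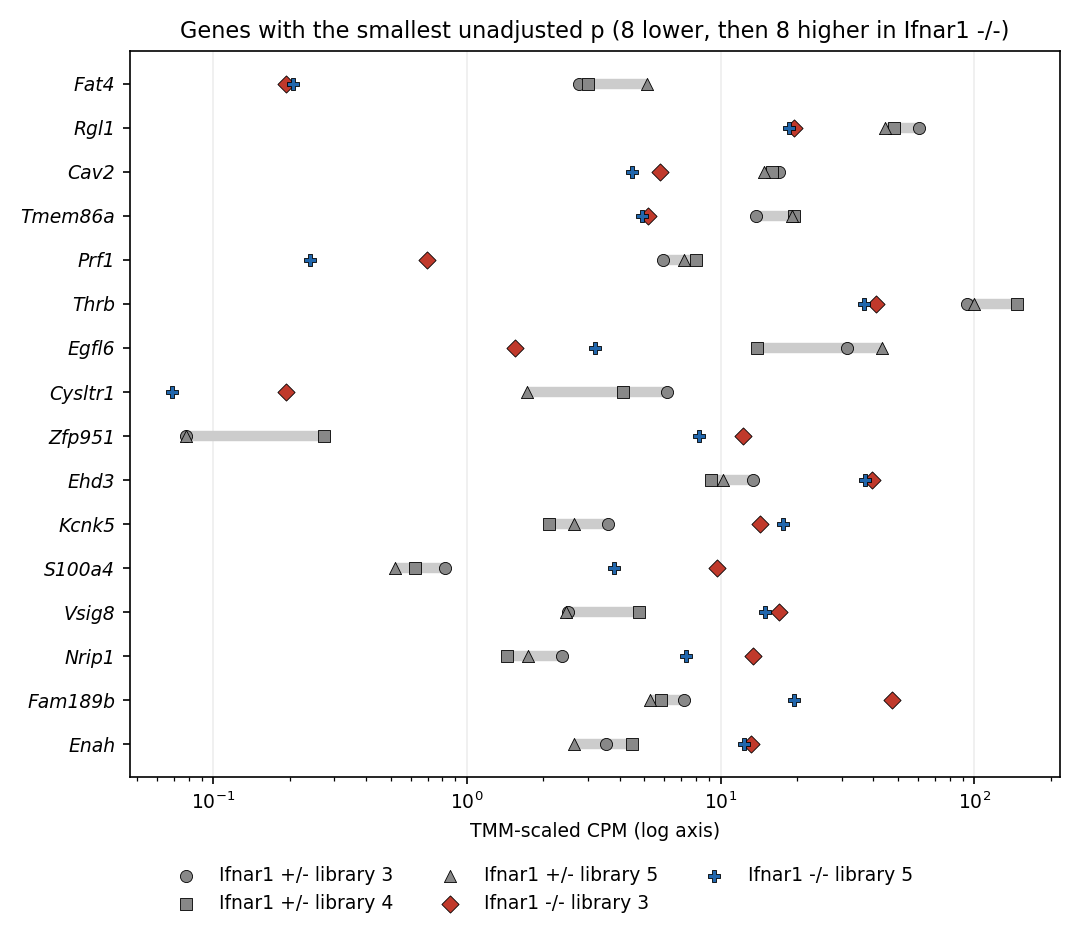
TMM-scaled CPM (log axis) of the 8 lower and 8 higher genes with the smallest unadjusted p in edgeR, 1 symbol per library, with the range of the 3 Ifnar1 +/- libraries as a grey bar. Both Ifnar1 -/- libraries lie outside the bar on the same side in all 16 genes, none of which passed in edgeR.

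The 5 libraries were chosen by Ebf1, and no gene of the transcription factor and pre-B-cell receptor lists passed in either tool. Of 19 transcription factor genes 15 had lower fitted values (78.9%, median -0.19), beside 50.7% of all genes tested. Pax5, which fixes B-cell identity, had 188, 199.8 and 218 CPM and 115 and 158 CPM, and Bach2 had 92.4, 64.7 and 77.6 CPM and 42.95 and 62.1 CPM. Both genes were below the Ifnar1 +/- range in both Ifnar1 -/- libraries, with a log2 fold change of -0.56 (SE 0.20) for Pax5. They were the only such members, 2 of 19 (10.5%), which is near the 9.34% of all genes tested. Of 14 genes of the pre-B-cell receptor and its signalling 10 had lower fitted values (median -0.08). Vpreb1 had 911, 964 and 848 CPM and 365 and 1360.0 CPM, and its partner Igll1 had 3050.3, 1823 and 1792 CPM and 1142 and 2051 CPM. Cd79a, the signalling chain, had 3188, 2789 and 3292 CPM and 2155 and 2883 CPM. All of these were lowest in Ifnar1 -/- library 3, and Vpreb1 was highest in Ifnar1 -/- library 5. Il7r, the receptor of the growth factor of early B cells, had 71.7, 88.04 and 80.4 CPM and 153 and 82.8 CPM, with library 3 above the Ifnar1 +/- range.

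Several single genes of early B cells, drawn from more than 1 list, had unlike levels in the Ifnar1 -/- libraries. The 10 genes of V(D)J recombination had a median log2 fold change near 0, with 5 lower and 5 higher. Their summed level was 317, 416 and 334 CPM against 543 and 554 CPM, without overlap. Both Ifnar1 -/- libraries were above the range in 2 of the 10 (20%, beside 7.22% of all genes). Both were below it in 1 (10%, beside 9.34%). Enpep, which encodes the early B-cell surface antigen BP-1, had 768, 691 and 765 CPM in the Ifnar1 +/- libraries and 0.735 and 557 CPM in the Ifnar1 -/- libraries. It was the 1 gene that edgeR called without Ifnar1 -/- library 5 (adjusted p = 0.0317), and it is named after its values were seen. Dntt, the terminal transferase of V(D)J recombination, had 0.350, 49.6 and 8.46 CPM and 0.348 and 188 CPM, and Rag1, the recombinase, had 1.40, 10.9 and 9.16 CPM and 20.4 and 10.98 CPM. Among the Ifnar1 +/- libraries alone Dntt already ran from 0.350 to 49.6 CPM. Ly6d, which appears as lymphoid progenitors commit to the B lineage, had 3.89, 11.1 and 3.25 CPM and 487 and 17.9 CPM (DESeq2 adjusted p = 0.0458), and most of that difference was in library 3. Blk, a kinase of the pre-B-cell receptor, had 0.584, 1.55 and 3.07 CPM and 16.4 and 0.0686 CPM, with library 3 the highest and library 5 the lowest. Cd22, an inhibitory B-cell receptor, had 147, 161 and 177 CPM and 85.1 and 106 CPM, a log2 fold change of -0.76 (SE 0.18, DESeq2 adjusted p = 0.0318). It was the only 1 of 13 tested later B-cell genes that DESeq2 called lower, beside 0.325% of all genes, and it did not pass in edgeR.

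Genes of other blood cell types also parted the Ifnar1 -/- libraries. The 12 neutrophil genes, of granule and calprotectin proteins, summed to 268, 1582 and 1575 CPM in the Ifnar1 +/- libraries and to 5270 and 1180 CPM in Ifnar1 -/- libraries 3 and 5. Library 3 was above the Ifnar1 +/- range in 11 of 12 (91.7%, beside 27.1% of all genes) and library 5 in 1 (8.33%, beside 21.9%). The median log2 fold change was 1.5 (2.22 for library 3 alone and 0.01 for library 5 alone). S100a8, a calprotectin subunit, had 65.1, 350.1 and 293 CPM and 1215 and 283 CPM, and Ngp had 96.5, 560.3 and 591 CPM and 1748 and 363 CPM. Chil3, a chitinase-like protein, was the only member above the range in both, at 12.8, 31.1 and 52.6 CPM and 179.6 and 113 CPM, and DESeq2 called it (adjusted p = 0.0458). The 12 megakaryocyte and platelet genes summed to 74.3, 87.0 and 27.9 CPM against 18.4 and 263 CPM, so that here library 5 was highest and library 3 lowest. Library 5 was above the range in all 9 that were tested, beside 21.9% of all genes. The 16 stem and multipotent progenitor genes summed to 1241, 629 and 456 CPM against 681 and 1155 CPM. Of the 13 tested, library 5 was above the range in 9 (69.2%, beside 21.9% of all genes) and library 3 in 1 (7.69%, beside 27.1%). Cd34 had 6.42, 17.8 and 10.5 CPM and 6.46 and 79.96 CPM, Gata2 had 13.8, 13.5 and 5.81 CPM and 5.49 and 78.5 CPM, and Hlf, which had 0 counts in library 3, had 0.311, 0.622 and 0.417 CPM and 0 and 9.03 CPM. The part of these cell type transcripts in the values of the interferon-stimulated genes was not tested.

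The summed levels of the other cell type lists overlapped between genotypes. The 25 T and NK cell genes summed to 1109, 1051 and 532 CPM against 570 and 823 CPM, in which Lck and Lat, also used by early lymphoid cells, were the most abundant. The 13 dendritic cell genes summed to 448, 336 and 373 CPM against 816 and 367 CPM, and Ly6d alone was 487 CPM of the sum in Ifnar1 -/- library 3. Ccr9, a chemokine receptor of that list, had 0.117, 0.0389 and 0.156 CPM and 0.889 and 2.75 CPM (DESeq2 adjusted p = 0.0417). DESeq2 called 2 of the 7 tested dendritic cell genes higher, Ly6d and Ccr9, beside 0.257% of all genes. Both Ifnar1 -/- libraries were above the range in 2 of the 7 (28.6%, beside 7.22%) and below it in 0, beside 9.34%. The 17 monocyte and macrophage genes summed to 41.5, 185 and 197 CPM against 236 and 185 CPM. The 12 endothelial and stromal genes summed to 220.1, 102 and 124 CPM against 109 and 121 CPM, nearly all of it Pecam1 and Pdgfrb, and Col1a2 had 0 counts in both Ifnar1 -/- libraries. Eosinophil genes summed to 54.4, 302 and 1189 CPM against 300.3 and 374 CPM, and mast cell and basophil genes to 183, 1795 and 551 CPM against 550.3 and 1220 CPM.

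No gene of the cell cycle, p53 and BCL2 family lists passed in either tool. Of 30 cell cycle genes 20 had lower fitted values (median -0.08). Library 5 was below the range in 13 (43.3%, beside 23.7% of all genes) and above it in 0, while library 3 was below in 6 and above in 10 (33.3%, beside 27.1%). Top2a had 472, 582 and 543 CPM and 439 and 418 CPM. Of 17 tested p53 targets 11 had lower fitted values (median -0.30). Library 3 was below the range in 10 (58.8%, beside 28.6% of all genes) and library 5 in 2 (11.8%, beside 23.7%), and with library 5 alone the median was -0.08. Cdkn1a, the cell cycle inhibitor p21, had 104, 122 and 123 CPM and 34.4 and 108 CPM, and Zmat3 had 10.5, 39.1 and 31.6 CPM and 1.04 and 10.9 CPM. Tnfrsf10b, a death receptor, went the other way at 0.506, 1.13 and 0.807 CPM and 2.78 and 4.29 CPM (log2 fold change 2.11, SE 0.52). Bcl2l11, which encodes the killer protein BIM, had 58.6, 43.5 and 48.3 CPM and 17.3 and 38.8 CPM, and Bcl2l1, the gene of the survival factor BCL-XL, had 629.6, 369 and 404 CPM and 151 and 344 CPM. Both of these were below the range in both Ifnar1 -/- libraries and lowest in library 3. Of 15 tested BCL2 family genes 11 had lower fitted values (median -0.17). Both Ifnar1 -/- libraries were below the range in 4 of the 15 (26.7%, beside 9.34% of all genes). Both were above it in 1 (6.67%, beside 7.22%). All 13 mitochondrially encoded genes had lower fitted values (median -0.18), which rested on library 5. Library 5 was below the range in 12 (92.3%, beside 23.7% of all genes) and library 3 in 5 (38.5%, beside 28.6%), and the median was -0.36 with library 5 alone and -0.01 with library 3 alone, where 7 of 13 were lower. Of 18 immediate early genes, which respond to stimulation and to handling of cells, 15 had higher fitted values (median 0.41, with 0.32 for library 3 alone and 0.12 for library 5 alone, where 8 of 18 were lower). Jun had 6.23, 25.8 and 10.9 CPM and 163 and 26.3 CPM, with library 3 far above the rest. Both Ifnar1 -/- libraries were above the range in 4 of the 18 immediate early genes (22.2%, beside 7.22% of all genes). Both were below it in 3 (16.7%, beside 9.34%).

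In the Hox programme, which the NHD13 fusion is known to maintain, 8 of 15 tested genes had lower fitted values (median -0.01). DESeq2 called 1 of the 15, which was higher, beside 0.257% of all genes called higher. Hoxa7 had 103, 173 and 297 CPM and 243 and 169 CPM, with full overlap. Of 16 targets of STAT5, which Flt3-ITD activates, 10 had higher fitted values (median 0.10). Il2ra had 6.85, 18.7 and 16.1 CPM and 62.3 and 27.9 CPM, above the range in both, and did not pass in either tool. Such a position was found in 4 of the 16 (25%, beside 7.22% of all genes). Both Ifnar1 -/- libraries were below the range in 1 (6.25%, beside 9.34%).

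Of 28 tested genes near Ifnar1 on chromosome 16, listed because they are linked to it, 18 had lower fitted values (median -0.08). Setd4, a SET-domain gene at 93583457 to 93604063 of chromosome 16 in GRCm38, had 17.1, 14.3 and 14.7 CPM and 8.62 and 8.58 CPM, a log2 fold change of -0.84 (SE 0.21, DESeq2 adjusted p = 0.0299). It was the only gene of that list that DESeq2 called, 1 of 28, beside 0.325% of all genes called lower. Rcan1, an inhibitor of calcineurin, had 2.10, 3.50 and 2.76 CPM and 1.01 and 1.54 CPM, and Cbr1, a carbonyl reductase, had 36.8, 31.9 and 21.8 CPM and 21.03 and 18.4 CPM. Both were below the range in both Ifnar1 -/- libraries and did not pass. Such a position was found in 4 of the 28 (14.3%), beside 9.34% of all genes tested, and 10 of the 28 had higher fitted values.

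The difference of the genotype effect between these AMLs and the Ebf1-low AMLs was tested by an interaction term over all 11 libraries. Of 16728 genes edgeR called 0 (percent called 0), with 197 lower (1.18%) and 315 higher (1.88%) at an unadjusted p under 0.05, where evenly spread p-values would give 836 in all, and DESeq2 called 17 of 16281 (0.104%). The interferon-stimulated lists had like medians in both. In this fit 61 of 84 members had lower fitted values in the Ebf1-high AMLs (median -0.42) and 58 of 84 in the Ebf1-low AMLs (median -0.37), beside 49.1% of all genes in each. The median interaction was 0.06 and no member passed in edgeR. The 8 OAS genes of this fit had medians of -0.62 in the Ebf1-high and -2.30 in the Ebf1-low AMLs, and none passed the interaction test. In the same order the Ifit and ISG15 list had -0.54 and -0.73. The other antiviral effectors had -0.39 and -0.22, and the GTPases -0.53 and -0.35. In the Ebf1-low AMLs all 3 Ifnar1 -/- libraries lay below all 3 Ifnar1 +/- libraries in 18 of 84 members (21.4%), beside 4.45% of all genes.

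Scaled over all 11 libraries, Oas1a had 1.96, 2.26 and 2.21 CPM in Ebf1-high Ifnar1 +/- AML and 0.217 and 10.4 CPM in Ebf1-high Ifnar1 -/- AML. In the Ebf1-low AMLs it had 5.62, 14.02 and 2.79 CPM in Ifnar1 +/- libraries 1, 2 and 6 and 0.434, 0.195 and 0.657 CPM in Ifnar1 -/- libraries 1, 2 and 4. Isg15 had 5.59, 3.97 and 4.37 CPM and 1.70 and 8.49 CPM in the Ebf1-high AMLs and 46.6, 58.9 and 68.6 CPM and 11.7, 3.46 and 12.4 CPM in the Ebf1-low AMLs. In the Ebf1-low AMLs the genotypes did not overlap for either gene, unlike the Ebf1-high AMLs, where Ifnar1 -/- library 5 was the highest. The interaction was 5.39 (SE 1.63) for Oas1a and 2.78 (SE 0.88) for Isg15, which did not pass in either tool. Rtp4 had 2.57, 6.52 and 1.98 CPM against 0.619, 0.341 and 0.292 CPM in the Ebf1-low AMLs, and Oasl1 had 0.843, 2.39 and 2.66 CPM against 0.155, 0.195 and 0.110 CPM, without overlap.

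Zfp951 had 0.0803, 0.135 and 0.130 CPM in the Ebf1-low Ifnar1 +/- libraries and 0, 8.67 and 0.219 CPM in the Ebf1-low Ifnar1 -/- libraries, so that it was present in 3 of the 5 Ifnar1 -/- libraries in all and at most 0.255 CPM in the 6 Ifnar1 +/- libraries. Prf1 had 38.2, 8.27 and 1.85 CPM and 1.95, 0.390 and 0.913 CPM, with overlap. Of the 8 lower genes 5 had the same sign in the Ebf1-low AMLs and of the 8 higher genes 3 did, and 0 passed there in edgeR. Nrip1 had the smallest interaction p, with 3.44 (SE 0.50, edgeR adjusted p = 0.899, DESeq2 adjusted p = 4.94e-07). It had 2.22, 1.35 and 1.64 CPM and 12.5 and 6.88 CPM in the Ebf1-high AMLs and 30.3, 37.2 and 46.6 CPM and 23.6, 14.4 and 20.2 CPM in the Ebf1-low AMLs. The order of the genotypes was thus opposite, without overlap in either. Next by p were Tubb6, Srgap1, Gramd3, Hnrnpll and Klf4. Tubb6, a beta tubulin, had 7.44, 4.92 and 3.85 CPM and 12.7 and 23.1 CPM in the Ebf1-high AMLs and 137, 117 and 107 CPM and 30.6, 8.91 and 43.1 CPM in the Ebf1-low AMLs. Hnrnpll, a splicing regulator of lymphocytes, had 0.508, 0.911 and 1.05 CPM and 9.17 and 3.13 CPM in the Ebf1-high AMLs and 12.6, 11.7 and 15.2 CPM and 13.9, 9.20 and 7.34 CPM in the Ebf1-low AMLs.

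**Figure D5:**
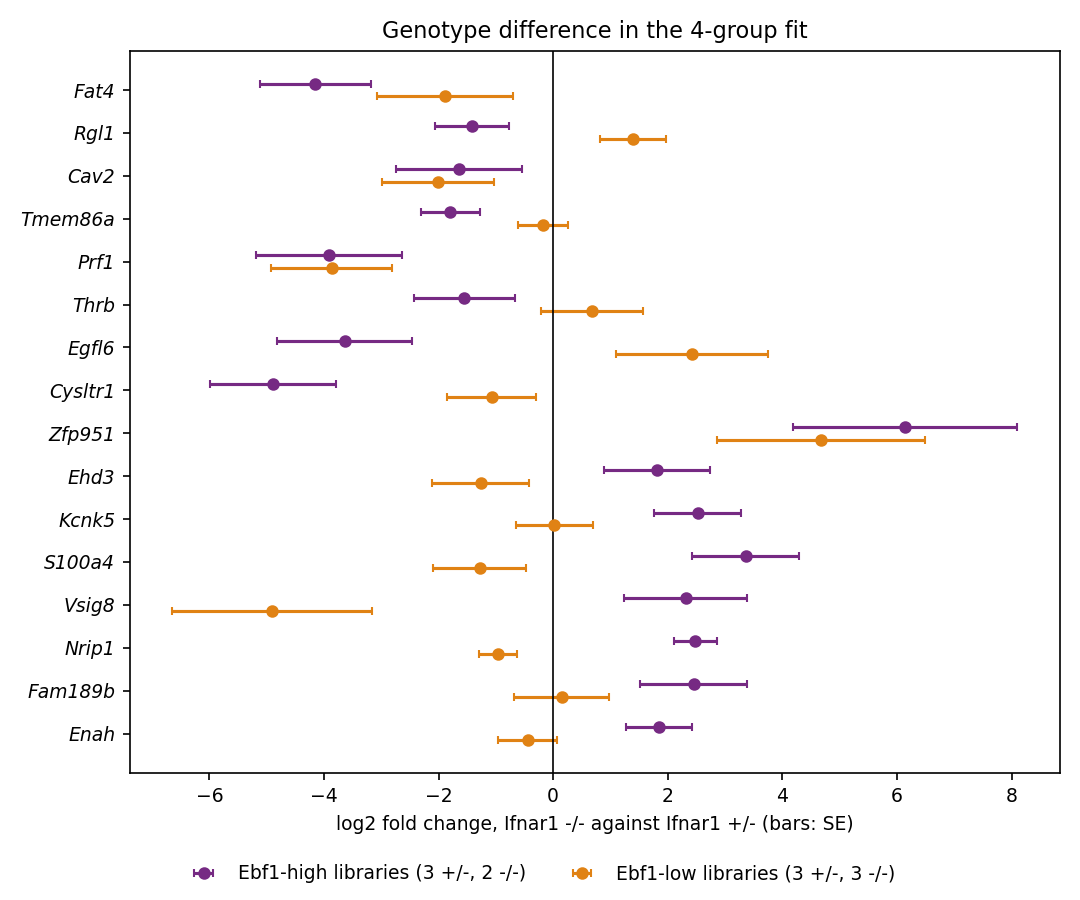
Log2 fold change of Ifnar1 -/- against Ifnar1 +/- (bars: SE) from the fit over all 11 libraries, for the 16 genes with the smallest p in the Ebf1-high AMLs, beside the same contrast in the Ebf1-low AMLs. In the Ebf1-low AMLs 5 of the 8 lower and 3 of the 8 higher genes have the same sign, and none passed.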

How the data were processed

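Bulk RNA of 11 mouse AML samples was deposited as 1 table of estimated counts per gene. Per the submitters' processing notes the authors used bcl2fastq and DRAGEN. Versions and genome build: not given in the sources used here. A Qiagen micro column kit and a Clontech kit were used per the labels' protocols. Of 55774 rows 287 identical copies were dropped, and 55141 of 55487 genes got a symbol by Ensembl identifier. Rounded counts entered edgeR 4.0.16 (R 4.3.3, filterByExpr, TMM, glmQLFit with robust=TRUE, two-sided, Benjamini-Hochberg, adjusted p threshold of 0.05). DESeq2 1.42.0, limma voom 3.58.1, other scalings and filters, each library left out and the replicate number as a block were alternatives. The SE of a log2 fold change is its size over the root of its F statistic. Gene positions are from GENCODE M21 on GRCm38.

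The libraries, the 37 gene lists, the tests and the alternatives were chosen with earlier results of these data known, so lists are described by counts and medians, without a test. Named genes are Ifnar1 and 4 markers, the 8 per direction with the smallest p, up to 4 members per list with the smallest p and the 2 most abundant (12 in interferon-stimulated lists), and 6 for the interaction. Genes with only a predicted or clone name are not named, and a few other genes are not reported here. Ifnar2, Jak1, Stat2, Slfn5, Xaf1, H2-Q7 and Enpep were added after their values were seen. Of 658 list entries 656 matched. The edgeR step was also run on simulated counts in which every gene had the same dispersion. That run checks the code and does not show how many true differences were missed here.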

Additional observations from a re-analysis of the deposited data

How the results depend on the processing

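edgeR called 0 genes under each scaling, filter and threshold tried, with limma voom, in the 11-library fit and with the replicate block (0 genes), and DESeq2 called 86. Leaving out each library gave 0 to 1 genes, the 1 being Enpep without Ifnar1 -/- library 5. The interaction called 0 genes in edgeR, also without Ifnar1 -/- library 2, and 17 in DESeq2. The median log2 fold change of the interferon-stimulated genes was negative under all alternatives, from -0.82 without Ifnar1 -/- library 5 to -0.14 without Ifnar1 -/- library 3. Of 559 values of 41 genes 0 changed sign and 27 passed, all 27 in DESeq2. Several list medians changed sign, and the cause was not tested. That of the endothelial and stromal genes was -2.69 and turned to 0.0603 with a filter of 5 CPM, which keeps fewer genes. That of the genes near Ifnar1 ran from -0.0866 without Ifnar1 +/- library 5 to 0.0163 without Ifnar1 +/- library 3. Without Ifnar1 -/- library 5 the median of the stem and multipotent progenitor genes went from 1.24 to -0.84. That of the mast cell and basophil genes went from 0.54 to -1.35. The eosinophil median went from -0.51 to 0.87 with limma voom and to 1.04 without Ifnar1 +/- library 5. Of 1008 list values 930 moved by less than their spread or by less than 1.5 times. The labels give no more than a number for pairing: deviations of same-numbered libraries correlated at 0.038 (number 3) and -0.098 (number 5).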
